A study of Mus musculus with 12 samples.

Results

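The 10 genes described here are the surfactant protein genes Sftpc, Sftpb, Sftpa1 and Sftpd, the surfactant lipid and lamellar body genes Abca3, Lamp3 and Lpcat1, and Napsa, Slc34a2 and Etv5, all of them markers of the alveolar type 2 cell. They were taken by symbol from the gene count table of 55487 genes, and all 10 were found and passed the expression filter with 45828 genes in all. The libraries came from the whole lungs of 12 C57BL/6J mice on postnatal day (PND) 21, and every animal was miR-30a -/-, the whole gene having been removed by CRISPR/Cas9 editing, so that no group here carries an intact miR-30a. From PND 1 to PND 5 the hyperoxia-exposed pups (3 females, 3 males) breathed 95% FiO2 and the room air controls (3 females, 3 males) did not, and both then recovered in room air. Exposure was assigned at random within each sex to pups mixed across litters, and the lungs were perfused with PBS and frozen. Wild-type lungs were not analysed here. Each lung is 1 animal by its label. The comparisons asked whether the 10 genes differed after neonatal hyperoxia in females, in males and over both sexes, and whether the difference depended on sex.

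Surfactant is the lipid and protein film that lowers surface tension in the alveoli. Alveolar type 2 cells make it, store it in lamellar bodies and secrete it, and they are also progenitors of the thin alveolar type 1 cells that carry gas exchange. The hydrophobic proteins SP-B and SP-C act in the film itself, whereas SP-A and SP-D are collectins that bind microbes and take part in surfactant turnover. The transcription factors NKX2-1 and the forkhead protein FOXA2 are known to act on surfactant protein promoters. miR-30a is a microRNA of the miR-30 family, which is expressed in lung.

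The sequence absent from all 12 animals is shown with the promoters of Sftpb, Sftpa1 and Lamp3, each of which carries a searched motif. The sequences are those of RefSeq on GRCm38.p6, which had promoter entries for 7 of the 10 genes (8 starts), with none used for Sftpc, Sftpd and Napsa. The mature miRNA lies at chr1:23272274-23272295 on the + strand and its seed (bases 2 to 8) is in capitals. For the promoters, the 250 bases before the start are given on the gene's own strand, with CTCAAG (an NKX2-1 motif) and TGTTTNC (a forkhead motif) in capitals, matched on both strands.
mmu-miR-30a-5p: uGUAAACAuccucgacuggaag
Sftpb (chr6:72304360-72304609, + strand): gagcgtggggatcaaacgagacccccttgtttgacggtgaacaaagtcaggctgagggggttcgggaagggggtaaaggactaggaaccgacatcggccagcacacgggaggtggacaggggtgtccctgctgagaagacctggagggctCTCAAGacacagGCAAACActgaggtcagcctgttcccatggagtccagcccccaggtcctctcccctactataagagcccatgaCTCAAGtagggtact
Sftpa1 (chr14:41131538-41131787, + strand): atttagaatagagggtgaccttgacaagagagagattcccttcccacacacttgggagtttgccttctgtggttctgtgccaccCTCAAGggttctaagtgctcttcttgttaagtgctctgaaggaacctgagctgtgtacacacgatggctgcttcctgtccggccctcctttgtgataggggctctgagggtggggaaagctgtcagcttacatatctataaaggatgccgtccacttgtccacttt
Lamp3 (chr16:19706366-19706615, - strand): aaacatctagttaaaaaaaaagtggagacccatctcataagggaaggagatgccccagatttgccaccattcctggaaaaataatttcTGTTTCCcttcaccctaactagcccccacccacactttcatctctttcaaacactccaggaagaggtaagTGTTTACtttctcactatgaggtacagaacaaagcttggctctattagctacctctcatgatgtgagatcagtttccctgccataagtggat

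Sftpb held CTCAAG at -100 to -95 and at -15 to -10 from its start, with a forkhead match in the opposite orientation at -88 to -82 between them. Sftpa1 held CTCAAG at -166 to -161. Lamp3 held the forkhead letters at -162 to -156 and at -92 to -86, and Etv5 held them at -183 to -177 of 1 of its 2 starts. CTCAAG was thus in the promoters of 2 of 7 member genes, against 13.3% of the 32851 promoters of the same length, and TGTTTNC in 3 of 7, against 17.8%. No binding was measured in these lungs, and a match is a description of letters only.

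Depth ran from 8763033 to 16741694 counts per lung. A count of 3, the smallest level taken as detectable, corresponded to 0.179 to 0.342 CPM (counts relative to the size of the library), a floor that covers counting error only, since no molecular identifiers are described. The 95% intervals of log2 fold changes come from the fit and cover the spread between lungs. Mir30a had 0 counts in all 12 lungs in a library of long RNA, which does not test the deletion at this depth. Xist, the X-inactivation RNA, had 8834 to 27296 counts in females and 148 to 210 in males, as the labels say. Between 6.04% and 23.8% of all counts fell on the predicted gene Gm10800, and 0.453% to 1.04% fell on 2003 olfactory and vomeronasal receptor genes, most of which are not known as lung genes. Olfr78, which marks pulmonary neuroendocrine cells, took 0.067% to 0.111% of the receptor counts. The background share of a gene was estimated from the median of the reads per kilobase over those receptor genes. It was 36.7% for the median tested gene but 0.037% for Sftpc, and at most 4.69%, for Etv5, among the members. Room air females 2 and 5 and hyperoxia-exposed male 1 stood apart with the lowest receptor shares, of 0.453% to 0.572%.

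Because that share differed between lungs, each member is given in CPM on 2 scales. The first scales each lung on the upper quartile of all 45828 tested genes, as the study's methods name it. The second, chosen after the values were seen, scales it on 2557 well-counted genes, those with an estimated background under 10% and at least 10 counts per library on average. Values are on the first scale unless the second is named. The 3 values of a group are listed by the replicate number in the label, which was 2, 5 and 6 for room air females, 2, 4 and 5 for females given hyperoxia, 1, 4 and 5 for room air males and 1, 2 and 3 for males given hyperoxia. The 10 genes together took 0.532% to 1.17% of all counts, and 2.07% to 2.68% of the counts on well-counted genes.

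Per length, the members spanned a wide range of levels, with Sftpc far above the rest. Over the 12 lungs the mean level in reads per kilobase and library size (RPKM, first scale) was 3104 ± 957 (SD) for Sftpc, 751 ± 236 for Sftpb, 269.6 ± 84.6 for Sftpa1, 261 ± 79.5 for Slc34a2 and 74.8 ± 22.9 for Lamp3. It was 40.9 ± 13.2 for Sftpd, 38.8 ± 9.56 for Lpcat1, 37.7 ± 8.66 for Abca3, 35.7 ± 8.59 for Napsa and 24.7 ± 5.96 for Etv5. The ranges of Sftpc and Sftpb, of Sftpb and Sftpa1, and of Slc34a2 and Lamp3 did not overlap. The other neighbours in this order overlapped in range: Sftpa1 was above Slc34a2 in 8 of 12 lungs, Sftpd above Lpcat1 in 6, Lpcat1 above Abca3 in 8 and Abca3 above Napsa in 10, although Lamp3 was above Sftpd, and Napsa above Etv5, in all 12.

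**Figure D1:**
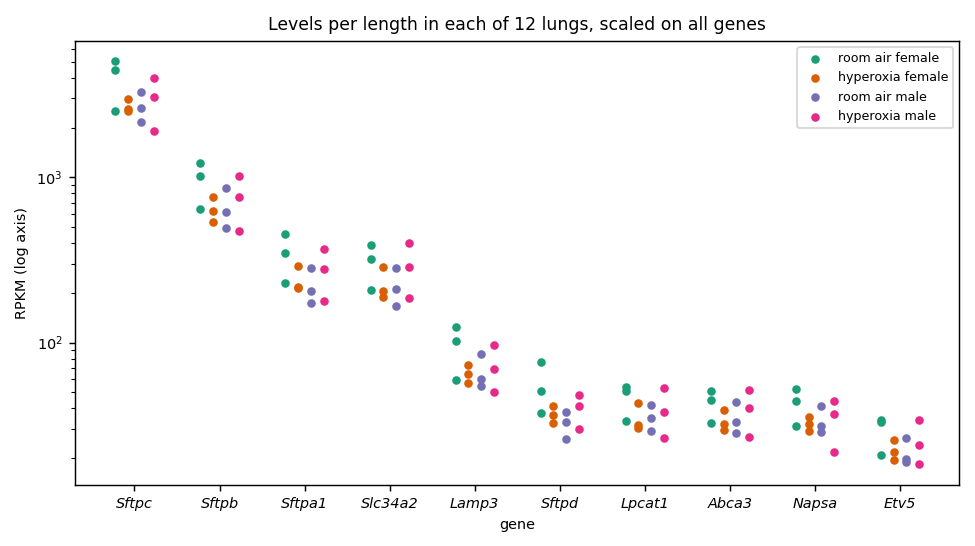
Level of each gene in RPKM (vertical log axis, scaled on all genes) in each of 12 lungs, coloured by group, with genes in order of their mean. Sftpc lies between 1905 and 5061 RPKM and Etv5 between 18.3 and 33.9 RPKM, and the 4 groups are intermixed in every gene.

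Sftpc (ENSMUSG00000022097, chr14:70520949-70524081) encodes SP-C, the surfactant protein made by alveolar type 2 cells alone. Its level in the 3 room air females was 4643, 5233 and 2617 CPM, and 3087, 2614 and 2693 CPM in those given hyperoxia. Room air males stood at 2239.9, 3408 and 2716 CPM and hyperoxia-exposed males at 4144, 1970.3 and 3149 CPM. Room air females 2 and 5 were the highest of all lungs, the third room air female lay within the range of the hyperoxia-exposed females, and the groups overlapped in both sexes. The mean was 2798 ± 253 CPM (SD, n = 3) in hyperoxia-exposed against 4164 ± 1372 CPM in room air females, a difference that did not pass the test (log2 fold change -0.57, SE 0.41, 95% interval -1.41 to 0.26, edgeR adjusted p = 0.5). In males it was 3088 ± 1088 against 2788 ± 588 CPM (log2 fold change 0.15, SE 0.41, 95% interval -0.68 to 0.98, edgeR adjusted p = 1.00). On the scale of well-counted genes, room air females stood at 11326, 11492 and 8339 CPM and hyperoxia-exposed females at 9241, 9795 and 9804 CPM, so that the low room air lung was below and the other two above every exposed lung. The log2 fold change on that scale was -0.11 (95% interval -0.38 to 0.16) in females, 0.06 (95% interval -0.22 to 0.33) in males and -0.03 (95% interval -0.22 to 0.16) over both sexes.

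Sftpb (ENSMUSG00000056370, chr6:72304610-72314371) encodes SP-B, without which lamellar bodies and the surface film do not form. Female lungs had 2015, 2385 and 1259 CPM of Sftpb in room air and 1489.9, 1049 and 1229 CPM after hyperoxia. Male lungs had 974, 1688 and 1210.01 CPM in room air and 2014, 927 and 1485 CPM after hyperoxia. The order of the lungs was close to that of Sftpc, with the same 3 lungs highest, and the groups overlapped. The log2 fold change was -0.59 (95% interval -1.35 to 0.17) in females and 0.19 (95% interval -0.57 to 0.95) in males, and on well-counted genes -0.14 (95% interval -0.40 to 0.12) and 0.11 (95% interval -0.15 to 0.37).

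Sftpa1 (ENSMUSG00000021789, chr14:41131782-41136452) and Sftpd (ENSMUSG00000021795, chr14:41172214-41185149), the genes of the collectins SP-A and SP-D, lie close together on chromosome 14. Sftpa1 in females was at 994, 1292 and 653 CPM in room air and 831, 621 and 615 CPM after hyperoxia. In males Sftpa1 stood at 498, 809 and 587 CPM in room air and 1049.5, 507 and 798 CPM after hyperoxia. Room air female 5 was the highest and room air male 1 the lowest lung, and the exposed lungs of each sex overlapped their controls. Sftpd was at 122, 185 and 90.9 CPM in room air females and 99.2, 79.2 and 88.0 CPM in hyperoxia-exposed females. It was at 63.3, 92.3 and 79.7 CPM in room air males and 116, 72.3 and 99.4 CPM in hyperoxia-exposed males. Here too room air female 5 stood above all others, and the third room air female lay among the exposed females.

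Sftpd had the smallest unadjusted p of the 10 genes in females, but it did not pass the test over all genes (log2 fold change -0.58, SE 0.24, 95% interval -1.07 to -0.09, edgeR adjusted p = 0.364, unadjusted p = 0.0216). In males its log2 fold change was 0.29 (95% interval -0.20 to 0.78). On well-counted genes Sftpd stood at 245, 263 and 269.95 CPM in room air males and 285, 325 and 301 CPM in hyperoxia-exposed males, and these groups did not overlap. The difference did not pass the test (log2 fold change 0.23, SE 0.11, 95% interval -0.01 to 0.46, edgeR adjusted p = 0.35). Among female lungs on this scale Sftpd was at 298, 407 and 289.7 CPM in room air and 297, 297 and 320.4 CPM after hyperoxia, where 1 lung, room air female 5, stood apart. Sftpa1 on well-counted genes had a log2 fold change of 0.23 (95% interval -0.0028 to 0.46) in males and -0.06 (95% interval -0.29 to 0.17) in females.

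Of the lamellar body and lipid genes, Abca3 (ENSMUSG00000024130, chr17:24351950-24410201) encodes the transporter that moves phospholipid into lamellar bodies. Its level in the 3 room air females was 420.3, 478 and 304 CPM, and 365, 276 and 302 CPM in those given hyperoxia. Its level in males was 266, 408 and 311 CPM in room air and 487, 249.9 and 374 CPM after hyperoxia. Exposed and control lungs overlapped in both sexes, with the highest value in hyperoxia-exposed male 1. Lamp3 (ENSMUSG00000041247, chr16:19653378-19706375) encodes a lysosome-associated membrane protein of lamellar bodies, also called DC-LAMP. Female lungs had 344, 419 and 200.1 CPM of Lamp3 in room air and 244, 217 and 191 CPM after hyperoxia. Male lungs stood at 184, 284 and 203 CPM and, after hyperoxia, at 324, 169 and 232 CPM. Room air females 2 and 5 again stood highest. Lpcat1 (ENSMUSG00000021608, chr13:73467197-73516422) encodes the acyltransferase that makes the disaturated phosphatidylcholine of surfactant. Lpcat1 in females was at 235, 248 and 155 CPM in room air and 200.3, 141 and 147 CPM after hyperoxia. Lpcat1 in males was at 135, 194 and 162 CPM in room air and 245, 122 and 175 CPM after hyperoxia. The groups of Lamp3 and Lpcat1 overlapped as those of Abca3 did.

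In females the log2 fold change was -0.35 (95% interval -0.94 to 0.23) for Abca3, -0.56 (95% interval -1.15 to 0.03) for Lamp3 and -0.39 (95% interval -0.93 to 0.15) for Lpcat1. On well-counted genes the same values were 0.08 (95% interval -0.06 to 0.23), -0.10 (95% interval -0.35 to 0.15) and 0.04 (95% interval -0.11 to 0.20), so that Abca3 and Lpcat1 changed sign with the scale. In males they were 0.17, 0.11 and 0.15 on all genes, and 0.09, 0.04 and 0.06 on well-counted genes. Lpcat1 and Napsa varied least of the members on the second scale, with a standard deviation of log2 CPM over the 12 lungs of 0.083 and 0.085.

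Napsa (ENSMUSG00000002204, chr7:44572380-44586862) encodes napsin A, an aspartic protease that cuts the SP-B and SP-C precursors. Its level in the 3 room air females was 118, 139.9 and 83.0 CPM, and 93.7, 77.0 and 85.1 CPM in those given hyperoxia. Males had 76.4, 110.3 and 83.3 CPM in room air and 117, 57.6 and 97.7 CPM after hyperoxia. Room air female 5 was the highest and hyperoxia-exposed male 2 the lowest lung. Etv5 (ENSMUSG00000013089, chr16:22381309-22439719) encodes an ETS transcription factor downstream of FGF and ERK signalling that maintains alveolar type 2 cell identity. Female lungs had 135, 139 and 85.4 CPM of Etv5 in room air and 106, 79.3 and 89.1 CPM after hyperoxia. Etv5 stood in males at 77.9, 109 and 81.3 CPM in room air and 139, 75.1 and 98.2 CPM after hyperoxia. Its 3 highest lungs were room air females 2 and 5 and hyperoxia-exposed male 1. The log2 fold changes of Napsa and Etv5 were -0.42 (95% interval -0.91 to 0.07) and -0.39 (95% interval -0.87 to 0.10) in females, and 0.01 (95% interval -0.48 to 0.50) and 0.22 (95% interval -0.27 to 0.71) in males. On well-counted genes they were 0.03 and 0.05 in females and -0.08 and 0.14 in males.

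Slc34a2 (ENSMUSG00000029188, chr5:53038081-53071664) encodes the sodium-phosphate cotransporter NaPi-IIb, which takes up the phosphate left by phospholipid breakdown. Slc34a2 in females was at 1597, 1946 and 1048 CPM in room air and 1431, 949 and 1022 CPM after hyperoxia. In room air males Slc34a2 stood at 839, 1418 and 1052 CPM and in hyperoxia-exposed males at 2018, 928 and 1438 CPM. All groups overlapped on this scale (log2 fold change 0.41, SE 0.36, 95% interval -0.34 to 1.15, edgeR adjusted p = 1.00, in males). On well-counted genes it stood at 3240.4, 4036 and 3561 CPM in room air males and 4979, 4179 and 4358 CPM in hyperoxia-exposed males. Every exposed male lung was then above every control, with means of 4505 ± 420.2 and 3612 ± 400.2 CPM (SD, n = 3). This was the largest male difference of the 10 genes on that scale, and it did not pass the test (log2 fold change 0.32, SE 0.12, 95% interval 0.06 to 0.58, edgeR adjusted p = 0.236, unadjusted p = 0.0182). Female lungs stood at 3896, 4274 and 3338 CPM in room air and 4283, 3556 and 3723 CPM after hyperoxia, which overlap, and the log2 fold change was 0.0064 (95% interval -0.25 to 0.26). Sftpd and Slc34a2 were the 2 of 10 members whose male groups did not overlap with the exposed lungs higher, where 8.33% of the 2557 well-counted genes did so, and 0 of 10 did so on the first scale, where 2.73% of tested genes did.

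**Figure D2:**
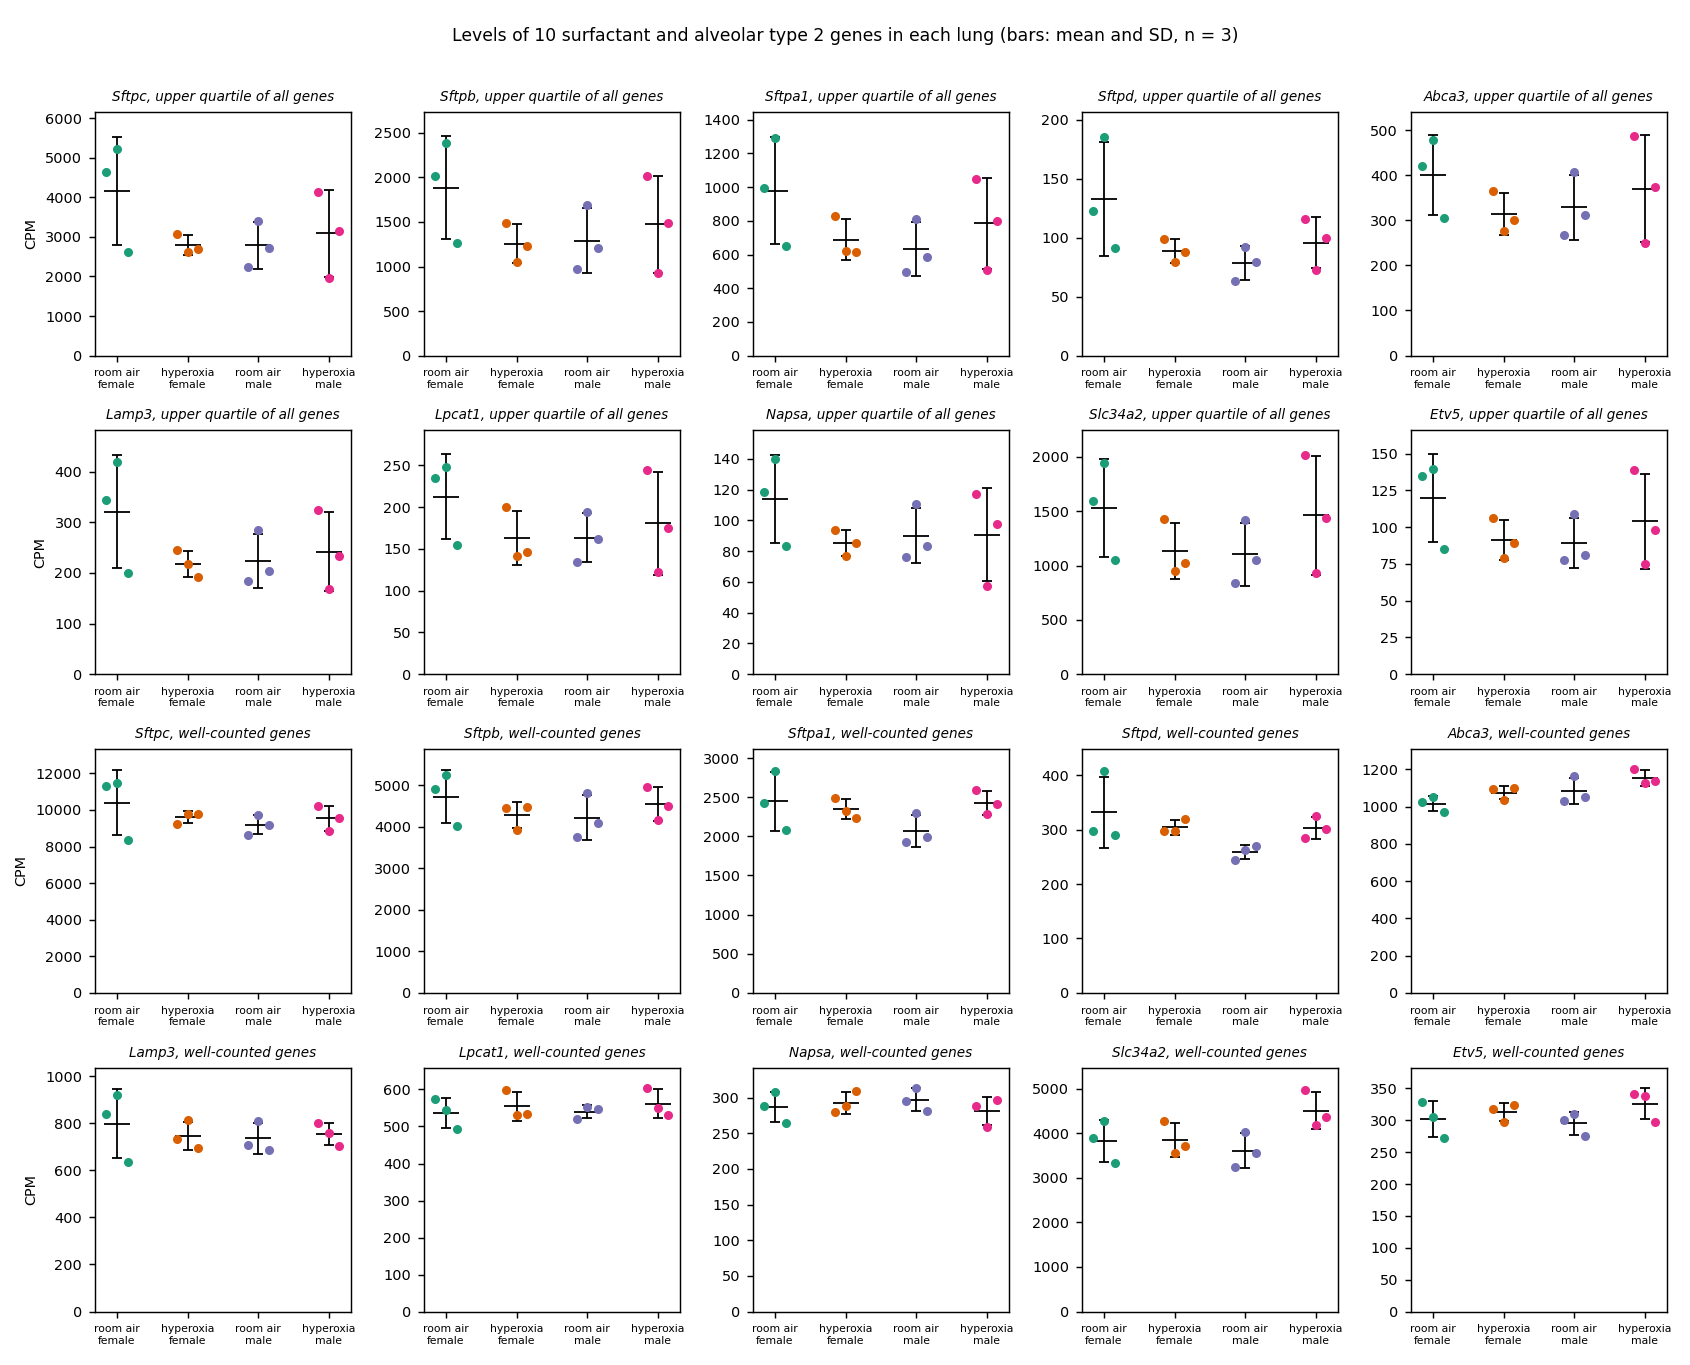
CPM (vertical axis, from 0) of each gene in each lung by group, with the mean and SD of 3 lungs. The upper 10 panels are scaled on all tested genes and the lower 10 on well-counted genes. In the upper panels room air females 2 and 5 and hyperoxia-exposed male 1 stand high in gene after gene. In the lower panels the spread narrows and the male groups of Sftpd and Slc34a2 do not overlap.

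The members rose and fell together from lung to lung. Over the 12 lungs and 45 pairs of members, Pearson's r of log2 CPM ran from 0.863 to 0.981 (median 0.960) on the first scale and from -0.030 to 0.837 (median 0.489) on well-counted genes. These are descriptions, since all genes of a lung share its library and scaling. The median SD of log2 CPM was 0.405 for the members, against 0.301 for all tested genes, and became 0.145, against 0.122, on well-counted genes. On the first scale the level of each of the 10 genes went down as the receptor share of the library went up, with r of log2 CPM against the log2 share from -0.985 to -0.924 and Spearman's rho from -0.979 to -0.937 (12 lungs, 20 relations over both scales, permutation test with 100000 permutations, two-sided, adjusted p at most 4.00e-05 for r and 8.00e-05 for rho). Level and share are parts of the same library, so this test cannot tell the members from other genes expressed in lung. The relation was not tested over all genes. On this scale 3389 of 21387 genes had r over 0.9 with the mean of the standardized members. Without room air female 5 and hyperoxia-exposed male 1, the lungs farthest from the median share, r of the members against the share ran from -0.972 to -0.887. On well-counted genes r ran from -0.859 (Sftpb, adjusted permutation p = 0.000618, rho -0.818 with adjusted p = 0.00373) to -0.100 (Abca3, adjusted permutation p = 0.756, rho -0.147 with adjusted p = 0.684), and from -0.744 to 0.061 without the same 2 lungs. The part of the receptor share in the group differences of these genes was not tested apart from the fits given here.

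**Figure D3:**
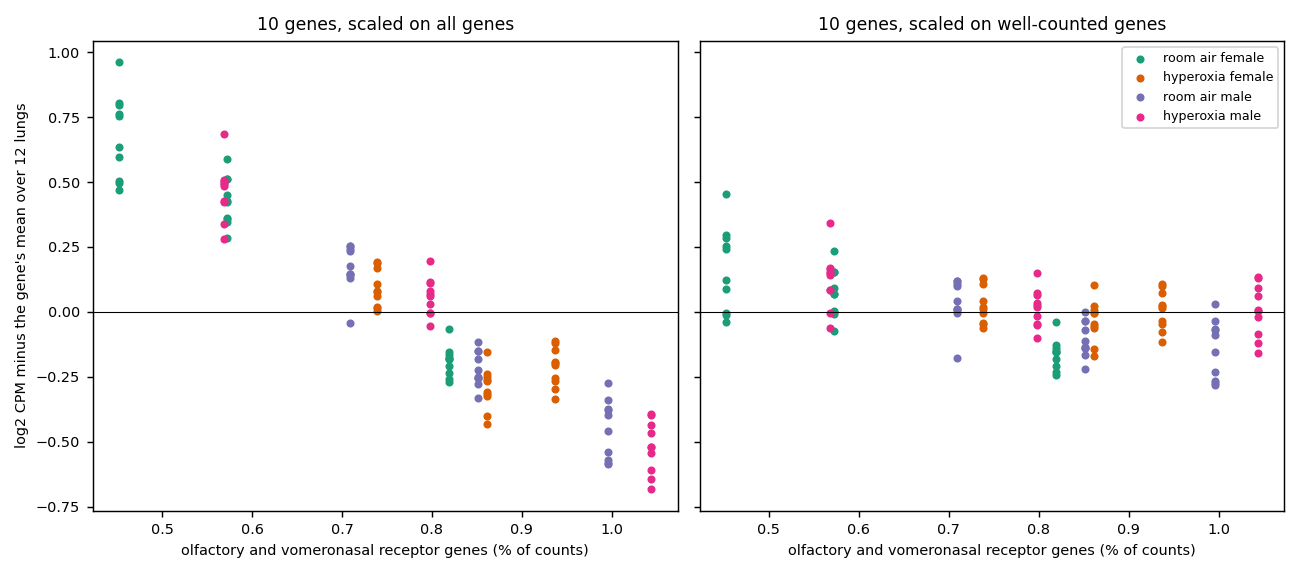
Log2 CPM of the 10 genes, each centred on its own mean over 12 lungs (vertical axis), against the percentage of counts on olfactory and vomeronasal receptor genes (horizontal axis), 1 column of 10 points per lung. Scaled on all genes (left), the columns fall from the lung with 0.453% to the lung with 1.04%, and scaled on well-counted genes (right) the columns lie nearer to 0.

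After hyperoxia in females, all 10 genes had lower mean levels on the first scale, with log2 fold changes from -0.59 (Sftpb) to -0.35 (Abca3) and a median of -0.47, beside a median of 0.11 over all tested genes. None of the 10 was called, that is, had an adjusted p under 0.05 with a change of more than 1.5-fold (edgeR adjusted p 0.364 to 0.564), and 1 had an unadjusted p under 0.05. Over all tested genes 0.00218% were called in females, and 5.28% were lower at an unadjusted p under 0.05. DESeq2 called 0 of the 10 as well, with adjusted p from 0.366 to 0.456. With well-counted genes as the scale, 5 members were higher and 5 lower (median -0.03, against 0.04 over those genes, adjusted p 0.613 to 0.984), with 0 of 10 and 0% of the well-counted genes called. Without the 3 lungs that stood apart, 9 of the 10 were higher in hyperoxia-exposed females on the first scale, from -0.03 (Sftpd) to 0.12 (Lamp3), which leaves 1 room air female and assumes that it varies as the other groups do. Room air female 5 alone moved the median of the members from -0.47 to -0.26, and the values then ran from -0.38 to -0.21. In whole lung, fewer alveolar type 2 cells and less RNA per cell cannot be told apart.

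After hyperoxia in males, all 10 were higher on the first scale, from 0.01 (Napsa) to 0.41 (Slc34a2), with a median of 0.18 against -0.01 over all tested genes. None was called (edgeR adjusted p = 1.00 for each, and 0 by DESeq2), none had an unadjusted p under 0.05, where 0.899% of all genes were higher at that level, and 0% of all genes were called. On well-counted genes 9 were higher, with a median of 0.10 against -0.02, and 1 of 10, Slc34a2, had an unadjusted p under 0.05 where 6.3% of well-counted genes were higher at that level. The direction depended on single lungs: without hyperoxia-exposed male 1 the median of the members was -0.08 with 7 of 10 below 0, and without room air male 1 it was 0.04 with 2 of 10 below 0. Leaving out the 3 lungs gave log2 fold changes from -0.20 (Napsa) to 0.14 (Sftpd), with 7 of 10 below 0 on the first scale. Over both sexes the values ran from -0.22 (Lamp3) to -0.01 (Slc34a2), and on well-counted genes from -0.03 (Lamp3) to 0.16 (Slc34a2), with 0 of 10 called on either scale where 0.0415% of all tested genes and 0.0391% of well-counted genes were called. The pooled intervals on well-counted genes ran from -0.22 at the lowest (Sftpc) to 0.34 at the highest (Slc34a2).

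**Figure D4:**
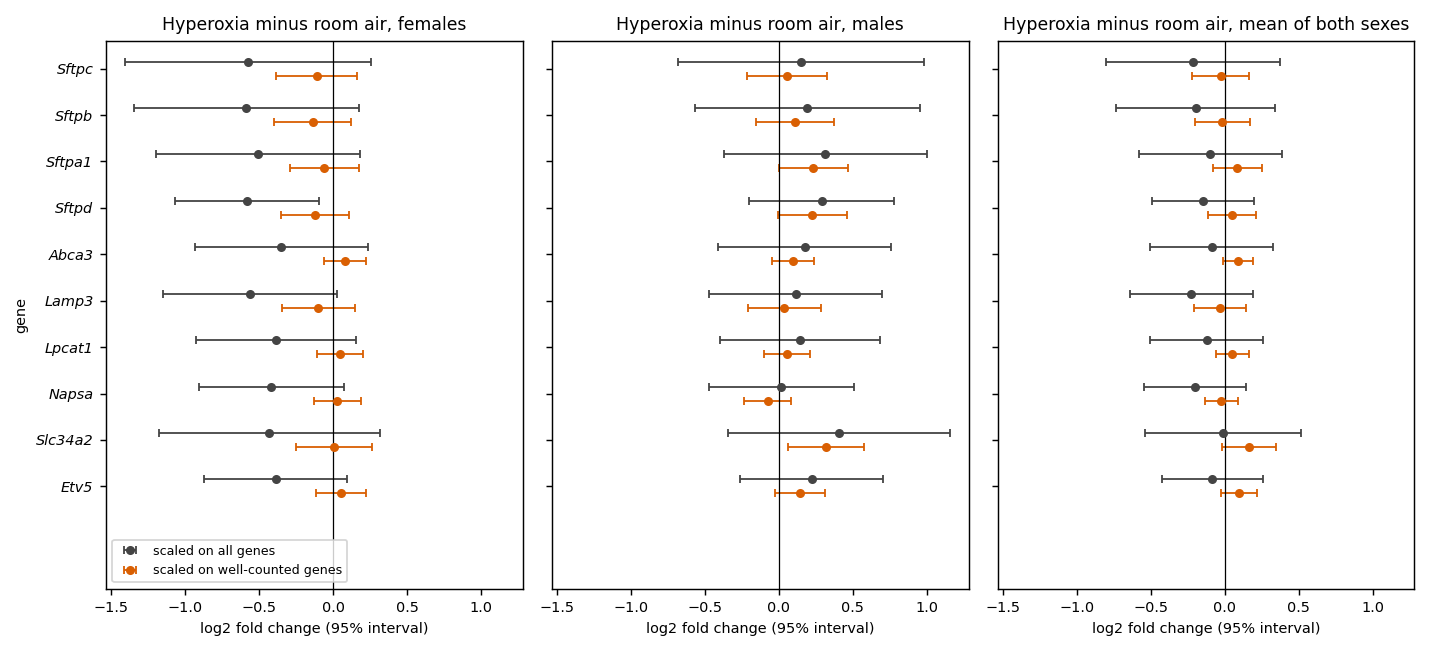
Log2 fold change of hyperoxia over room air (horizontal axis) with its 95% interval for each gene in females, in males and as the mean of both, scaled on all genes (grey) and on well-counted genes (orange). On all genes the female values lie between -0.59 and -0.35 and the male values between 0.01 and 0.41. On well-counted genes the intervals are shorter, and Slc34a2 in males is the 1 gene whose interval there leaves out 0.

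The difference between the sexes in the effect of hyperoxia was tested as an interaction, females minus males. It was below 0 for all 10 genes on the first scale, from -0.87 (Sftpd) to -0.43 (Napsa), and 0 of 10 were called, as were 0% of all genes. The sign depended on the treatment of the receptor share: with it as a covariate 7 of 10 were above 0 (median 0.067), and without the 3 lungs of lowest share 9 of 10 were (median 0.13). Sftpd had the smallest p of the members (log2 difference -0.87 (95% interval -1.56 to -0.18), unadjusted p = 0.0157, edgeR adjusted p = 0.578), and on well-counted genes its value was -0.35 (95% interval -0.68 to -0.02) with unadjusted p = 0.0375 and edgeR adjusted p = 0.765. Of all tested genes 2.4%, and of well-counted genes 1.29%, were below 0 at an unadjusted p under 0.05. The remaining members ran on well-counted genes from -0.31 (Slc34a2) to 0.10 (Napsa). Between females and males averaged over exposure, 0 of 10 were called where 1.22% of all tested genes were, and 0 of 10 on well-counted genes, where 0.0782% were.

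RUVr, a method that removes factors estimated from the residuals of a first fit and that the study's methods name without a number of factors, gave the same directions, other than for Napsa in males (-0.02), with smaller errors. With 1 factor all 10 genes were lower in hyperoxia-exposed females at an edgeR adjusted p under 0.05, from -0.54 (Sftpb, adjusted p = 8.92e-08) to -0.33 (Abca3, adjusted p = 3.07e-04), and none of them passed the fold change of 1.5. Of all tested genes 11.1% were lower at that adjusted p. In males Slc34a2 was higher by 0.37 (adjusted p = 0.00452), under that fold, where 0.105% of all genes were higher at that adjusted p. Over both sexes Sftpc, Sftpb, Lamp3 and Napsa were lower at an adjusted p under 0.05, with log2 fold changes of -0.20, -0.19, -0.21 and -0.20, as were 4.05% of all genes. The interaction was called for 6 of the 10 (Sftpc, Sftpb, Sftpa1, Sftpd, Lamp3 and Slc34a2), from -0.81 (Sftpd) to -0.59 (Lamp3), where 1.27% of all genes were called below 0 and 2101 genes in both directions. Females had higher means than males for all 10, and 5 of 10 passed an adjusted p under 0.05 (smallest 8.74e-05, largest log2 difference 0.32), where 3.98% of all genes did so in that direction. The same fit called 1903 of all tested genes in females against 1 without the factor. With the log2 receptor share as a covariate instead, 9 of 10 were higher in females, from -0.05 (Sftpd) to 0.21 (Slc34a2), and none of the 10 was called in any contrast.

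Ratios of 2 members within a lung do not depend on the scale. Sftpc over Sftpb, the proportion of the main hydrophobic protein genes, was 2.19 ± 0.112 (SD, n = 3) in room air and 2.25 ± 0.216 in females given hyperoxia, whereas in males it was 2.19 ± 0.148 in room air and 2.10 ± 0.0377 after hyperoxia. Over the 12 lungs this ratio ran from 2.02 to 2.49. Sftpa1 over Sftpd, the collectins, was 7.43 ± 0.619 and 7.74 ± 0.698 in females and 7.99 ± 0.712 and 8.04 ± 1.03 in males, in the same order of groups. The highest ratio was 1.23 times the lowest for Sftpc over Sftpb and 1.30 times for Sftpa1 over Sftpd. The highest level of these 4 genes was 2.57 to 2.93 times the lowest on the first scale and 1.38 to 1.66 times on well-counted genes. Abca3 over Lamp3 was 1.29 ± 0.201 in room air and 1.45 ± 0.157 in hyperoxia-exposed females, and 1.47 ± 0.0511 and 1.53 ± 0.0692 in males. Lpcat1 over Sftpc was 0.0524 ± 0.00609 and 0.0578 ± 0.00611 in females and 0.0589 ± 0.00173 and 0.0588 ± 0.0032 in males. Etv5 over Sftpc was 0.0294 ± 0.00304 and 0.0326 ± 0.00208 in females and 0.0322 ± 0.00243 and 0.0343 ± 0.00353 in males. None of the 5 ratios passed the test of hyperoxia against room air, an exact permutation test within sex (two-sided, 400 arrangements, log2 differences from -0.010 to 0.119, adjusted p 0.363 to 0.83). Within 1 sex the exact test has 20 arrangements and cannot go below p = 0.1, and no ratio reached it.

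**Figure D5:**
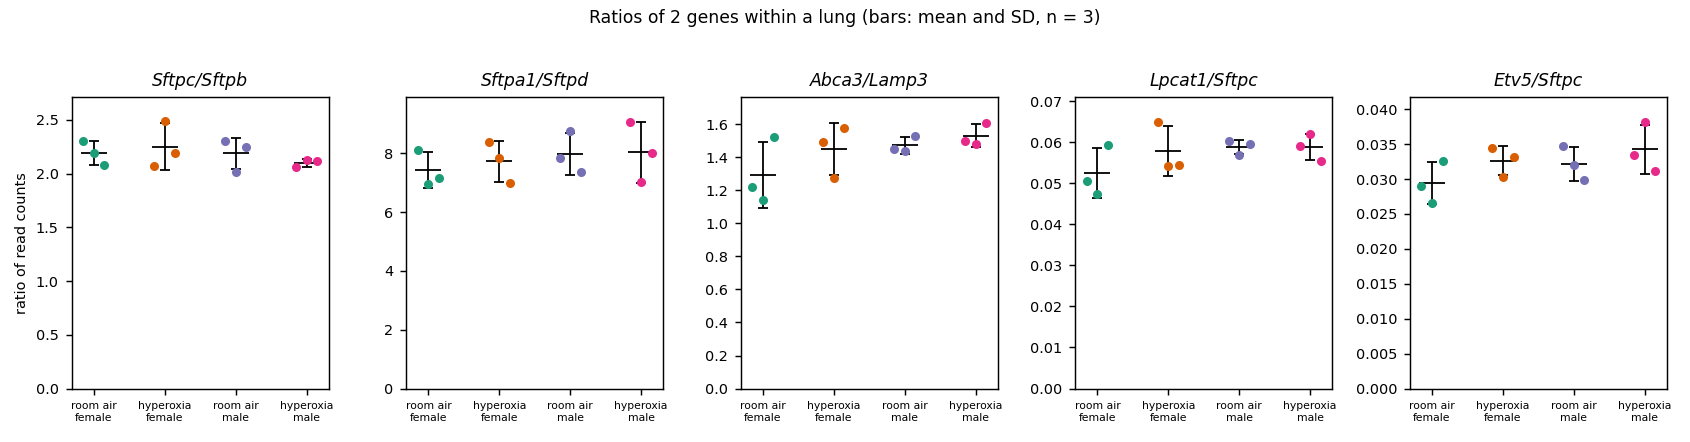
Ratio of the read counts of 2 genes (vertical axis, from 0) in each lung by group, with the mean and SD of 3 lungs. Sftpc over Sftpb stays between 2.02 and 2.49 and Sftpa1 over Sftpd between 6.97 and 9.08 in all 12 lungs, and the groups overlap in every panel.

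The other genes of surfactant biology, in 6 lists of 59 genes in all, had 0 genes called in females, in males or over both sexes. In females on the first scale, 12 of 12 surfactant lipid synthesis genes were lower (median -0.32), as were 7 of 7 transcription factors of the alveolar type 2 programme (median -0.29), 15 of 15 other alveolar type 2 markers (median -0.52) and 8 of 9 FGF and ERK feedback genes (median -0.46). Of the genes for surfactant pool sensing and clearance 7 of 8 were lower (median -0.24), and of those for protein processing and lamellar body biogenesis 5 of 8 (median -0.04). In males most of these genes had higher means, with 10 of 12, 6 of 7, 10 of 15, 5 of 9, 5 of 8 and 5 of 8 genes higher and medians of 0.09, 0.13, 0.12, 0.05, 0.0077 and 0.03 in the same order of lists. On well-counted genes, which hold 29 of the 59, the female medians of these lists in the same order were -0.02 (5 genes), -0.01 (3), -0.09 (14), -0.03 (4), 0.02 (1) and 0.14 (2). The medians of 5 of the 6 lists were nearer to 0 on this scale, whereas that of protein processing and lamellar body biogenesis was farther from it, and the lists hold fewer genes there.

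Of single genes in those lists, Lyz1, a lysozyme gene, had the smallest unadjusted p in females, at 62.9 ± 6.32 CPM after hyperoxia against 124 ± 19.5 CPM in room air (SD, n = 3), with a log2 fold change of -0.98 (SE 0.23, edgeR adjusted p = 0.182) and of -0.55 on well-counted genes (adjusted p = 0.307). Spry4, a feedback inhibitor of FGF signalling, was at 38.3 ± 4.42 against 65.8 ± 8.20 CPM in females (log2 fold change -0.78, edgeR adjusted p = 0.231) and at 32.7 ± 8.66 against 42.3 ± 10.1 CPM in males (-0.36, adjusted p = 1.00). The female groups of Lyz1 and Spry4 did not overlap on the first scale, where 6.42% of all tested genes were lower without overlap, and those of Lyz1 overlapped on well-counted genes. For Spry4 the background was too high for the well-counted genes, and over both sexes the log2 fold change was -0.57 (adjusted p = 0.293). Il33, an alarmin of the interleukin-1 family, had a female log2 fold change of -0.73 (adjusted p = 0.311) and -0.29 on well-counted genes. In males Cxcl15, the chemokine lungkine, was at -0.35 and, on well-counted genes, -0.44 (edgeR adjusted p = 0.199), and Lgi3 at 0.27 and 0.19. On well-counted genes the groups did not overlap for Il33 in females or for Cxcl15 and Lgi3 in males. Of the well-counted genes, 4.26% were lower without overlap in females, and in males 11.7% were lower and 8.33% higher. Scd1, the stearoyl-CoA desaturase of lipid synthesis, had a pooled log2 fold change of -0.65 (adjusted p = 0.927) and -0.45 on well-counted genes (adjusted p = 0.137), and none of these passed the test.

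Markers of most other cells of the lung were lower with the members in females on the first scale, and in males they were divided. In females 10 of 10 alveolar type 1 markers (median -0.46), 9 of 9 capillary endothelial markers (median -0.39), 6 of 6 club cell markers (median -0.60) and 7 of 7 fibroblast markers (median -0.18) were lower after hyperoxia, with 0 called, whereas alveolar macrophage markers were near 0 (7 of 10 lower, median -0.06). In males, where all 10 members had higher means, 7 of 7 fibroblast and 6 of 9 capillary endothelial markers were higher (medians 0.15 and 0.06), 5 of 10 type 1 markers were (median 0.03), and 4 of 6 club cell, 3 of 5 ciliated and 4 of 7 transitional epithelial markers were lower (medians -0.16, -0.08 and -0.04). On well-counted genes some directions in females turned, with 6 of 7 fibroblast (median 0.24) and 5 of 9 capillary endothelial markers (0.04) higher, whereas 7 of 10 type 1 markers were lower (-0.02) as were 6 of 6 club cell markers (-0.14). Of the 10 alveolar macrophage markers 2 were well counted, Chil3 at -0.02 on the first scale and 0.42 on the second and Ear2 at 0.32 and 0.76. The summed level of the type 1 markers, with Clic5 and Emp2 the highest, was 1998 to 2685 CPM in hyperoxia-exposed and 2446 to 3648 CPM in room air females, and 1620 to 3331 and 1828 to 2914 CPM in males. For club cells, led by Scgb1a1 and Cbr2, the sums were 5277 to 7291 and 7132 to 13994 CPM in females and 4943 to 7952 and 5797 to 8767 CPM in males. The sum of the blood markers, with Hbb-bs and Hba-a1 the highest (means of 2047 and 1866 CPM), separated by exposure in both sexes. It was 1203 to 2717 CPM after hyperoxia against 5109 to 7369 CPM in room air females, and 1975 to 4324 against 4734 to 6796 CPM in males. Of the 6 genes in the blood list, 1 was higher in females and 2 in males (medians -1.10 and -0.48). Among all tested genes taken singly, 6.42% in females and 3.89% in males were lower without overlap. Within that list Alas2, the erythroid enzyme of haem synthesis, was called over both sexes (log2 fold change -1.11, SE 0.19, edgeR adjusted p = 0.0129), and on well-counted genes it was at -0.92 with adjusted p = 0.088. The call of Alas2 was also lost without room air male 5, room air female 2, hyperoxia-exposed female 2 or hyperoxia-exposed female 5 (log2 fold change -1.13 to -1.01, adjusted p 0.0845 to 0.145), with 2 RUVr factors (-1.11, adjusted p = 0.0596), with the receptor share as a covariate (-1.10, adjusted p = 0.214) and with a replicate block (-1.35, adjusted p = 1.00).

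Immediate early genes, led by Jun and Egr1, summed to 153 to 237 CPM in hyperoxia-exposed and 278 to 355 CPM in room air females, which do not overlap, and to 146 to 222 and 142 to 208 CPM in males. Of these Atf3, a stress-induced transcription factor, was called higher in females than in males over both exposures (log2 difference 0.80, edgeR adjusted p = 0.00866). Its estimated background of 25.1% was too high for the well-counted genes. Atf3 was at 17.3 ± 8.37 against 7.37 ± 1.21 CPM in room air and 8.56 ± 1.52 against 6.65 ± 0.473 CPM after hyperoxia, and without room air female 6 the difference of 0.58 was under the fold of 1.5. Muscle markers, led by Neb and Acta1, summed to 192 to 1709 CPM in room air males and to at most 296 CPM in every other group. The lowest room air male lay within the 181 to 233 CPM of hyperoxia-exposed males, so the sum was not high in every room air male. Alveolar macrophage markers, led by Chil3 and Mrc1, were at 278 to 417 and 256 to 485 CPM in females, transitional epithelial markers, led by Krt19 and Lgals3, at 118 to 126 and 134 to 174 CPM, and ciliated cell markers, led by Foxj1 and Ccdc153, at 52.2 to 59.9 and 57.7 to 113 CPM, in hyperoxia-exposed and room air females. Capillary endothelial sums, led by Cdh5 and Pecam1, were 1375 to 1800.3 and 1589.6 to 2375 CPM, and fibroblast sums, led by Npnt and Inmt, 1168 to 1739.7 and 1289.7 to 2051 CPM in the same groups. No marker of these lists was at 0 counts in any lung, and the part of these cells in the values of the members was not tested.

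By correlation of log2 CPM with the mean of the 10 standardized members over 12 lungs, the most similar genes on the first scale were Lclat1 (r = 0.995), Rbms3 (0.993), Glyr1 (0.992), Bclaf1 (0.992) and Arid1b (0.991), followed by Iqgap1, Gas6, Stat6, Chd8 and Myo9a. On this scale 3389 of 21387 genes had r over 0.9. On well-counted genes the most similar of 2485 genes were Dram1 (r = 0.819), Phldb2 (0.814), Rnase4 (0.802), Zfp36l1 (0.798) and Nkx2-1 (0.791), then Gas6, Lgi3, Iqgap1, Eef1a1 and Hc, and 0 genes had r over 0.9. Of these 10, Dram1, Lgi3, Hc and Nkx2-1 were in the lists of alveolar type 2 genes named above. These correlations are a description, over points that share library and scaling.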

How the data were processed

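Total RNA from 12 whole lungs (3 per sex and exposure) was sequenced. Per the labels and the study's methods, reads were trimmed (Trim Galore) and aligned with STAR to GRCm38 (mm10), and the authors deposited raw counts of reads per gene made by featureCounts. Versions, the annotation and the strand setting are not given in the sources used here. For the library kit the methods name QIAseq Stranded Total RNA, whereas the labels name NEBNext Ultra II Directional with rRNA depletion. The ComBat-seq batch step that the methods name was not repeated. The members, lists and tests were chosen with earlier results of these data known.

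The deposited counts were analysed with R 4.3.3 and edgeR 4.0.16 (robust quasi-likelihood fit of 4 group means, upper-quartile normalization, filterByExpr, Benjamini-Hochberg adjustment over the 45828 genes tested, biological coefficient of variation 0.177). A gene was called where its adjusted p was under 0.05 with a change of more than 1.5-fold. CPM and RPKM were computed from the counts and the normalized library sizes, with exon lengths and positions from GENCODE mouse release 21, which matched 55227 of 55487 genes. The contrasts were hyperoxia minus room air in females, in males and as the mean of both, their difference (interaction), and females minus males. The second scale repeated the fit on 2557 well-counted genes (predicted genes named Gm and a number left out), where the coefficient was 0.116. Ratios were tested by exact permutation of exposure within sex. Alternatives were TMM and DESeq2's size factors, DESeq2 1.42.0, no filter or 10 counts in every library, RUVr with 1 or 2 factors (limma 3.58.1 and edgeR, written out from its published steps), the receptor share as a covariate, 1 sex alone, an additive model, the adjusted p alone, a pseudocount of 1 in the ratios, a replicate block and each lung left out. Genes named besides the members were every list gene called, the 3 list genes of smallest unadjusted p in females, males and both, the 2 highest markers of each cell type and the 10 genes most similar to the members. Lungs of a group differed by more than counting noise (chi-square over degrees of freedom 2.38 to 48.0), so none was counted as a duplicate. On simulated counts for the pooled contrast with 45828 genes, 93 of 110 genes changed 2-fold and 87 of 90 changed 3-fold were recovered with 5 false calls. Ratios, correlations and plots used scipy 1.17.1, matplotlib 3.10.9, pandas 2.3.3 and numpy 2.4.6 under Python 3.11.15.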

Additional observations from a re-analysis of the deposited data

How the results depend on the processing

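The count of members called was 0 of 10 in each contrast that was run under each alternative, other than the interaction with RUVr, where it was 6 with 1 factor and 6 with 2 factors. The direction of single members depended on the scaling. With well-counted genes as the scale (chosen after the values were seen), the log2 fold change changed sign in females to 0.083 (Abca3), 0.045 (Lpcat1), 0.028 (Napsa), 0.0064 (Slc34a2) and 0.050 (Etv5), in males to -0.076 (Napsa) and over both sexes to 0.086 (Sftpa1), 0.050 (Sftpd), 0.088 (Abca3), 0.050 (Lpcat1), 0.16 (Slc34a2) and 0.096 (Etv5). With the log2 receptor share as a covariate it changed sign in females to 0.064 (Sftpc), 0.063 (Sftpb), 0.14 (Sftpa1), 0.15 (Abca3), 0.079 (Lamp3), 0.14 (Lpcat1), 0.10 (Napsa), 0.21 (Slc34a2) and 0.10 (Etv5), in males to -0.027 (Sftpc), -0.050 (Lamp3), -0.013 (Lpcat1) and -0.13 (Napsa) and over both sexes to 0.019 (Sftpc), 0.041 (Sftpb), 0.14 (Sftpa1), 0.059 (Sftpd), 0.091 (Abca3), 0.015 (Lamp3), 0.062 (Lpcat1), 0.22 (Slc34a2) and 0.093 (Etv5). Without the 3 lungs of lowest receptor share (also chosen afterwards) it changed sign in females to 0.10 (Sftpc), 0.0013 (Sftpb), 0.083 (Sftpa1), 0.050 (Abca3), 0.12 (Lamp3), 0.076 (Lpcat1), 0.043 (Napsa), 0.12 (Slc34a2) and 0.10 (Etv5), in males to -0.12 (Sftpc), -0.093 (Sftpb), -0.069 (Abca3), -0.15 (Lamp3), -0.13 (Lpcat1), -0.20 (Napsa) and -0.039 (Etv5) and over both sexes to 0.068 (Sftpa1), 0.053 (Sftpd), 0.11 (Slc34a2) and 0.033 (Etv5). RUVr with 1 and with 2 factors turned Napsa in males to -0.018 and -0.021, and a filter of 10 counts in every library turned Slc34a2 over both sexes to 0.018. The causes were not tested.

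Each lung was left out in turn. In males the sign then changed within ranges of -0.068 to 0.40 (Abca3), -0.038 to 0.42 (Etv5), -0.15 to 0.33 (Lamp3), -0.13 to 0.37 (Lpcat1), -0.20 to 0.26 (Napsa), -0.093 to 0.45 (Sftpb) and -0.12 to 0.40 (Sftpc). Over both sexes the ranges were -0.21 to 0.022 (Abca3), -0.21 to 0.011 (Etv5), -0.23 to 0.030 (Sftpa1), -0.25 to 0.014 (Sftpd) and -0.16 to 0.11 (Slc34a2). In females no member changed sign, but the median of the members, -0.47, became -0.26 without room air female 5 and -0.69 without room air female 6, and single members ran from -0.80 to -0.26 (Sftpd), -0.74 to -0.26 (Sftpa1) and -0.65 to -0.22 (Slc34a2). In males the median, 0.18, became 0.04 and 0.38 without room air males 1 and 4, and -0.08 and 0.41 without hyperoxia-exposed males 1 and 2. The log2 difference of Sftpc over Sftpb ran from -0.048 to 0.019 and that of Sftpa1 over Sftpd from -0.014 to 0.079.

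Replicate numbers are shared by 2 pairs of female lungs and 1 pair of male lungs. Deviations of same-numbered lungs from their group means correlated by 0.098, -0.216 and -0.372, so that the numbers were not taken as pairs. A replicate block in the 6 female lungs called 0 of 10 members and 451 of all genes, against 80 in the same lungs without it, and a block over all lungs called 0 of 10 members and 2 genes, against 19, with Slc34a2 at 0.049. No paired analysis was possible in males alone because they share 1 number. The number of all genes called in females was 1, against 1903 and 1931 with 1 and 2 RUVr factors, 44 with DESeq2, 9 with DESeq2's size factors, 8 without a filter, 0 with TMM, 22 with the receptor share, 80 in the 6 female lungs alone, 0 on well-counted genes, 89 without the 3 lungs of lowest receptor share and 0 to 206 with 1 lung left out (206 without room air female 6). In males, where it was 0, RUVr called 16 and 64, the receptor share 6, and the 6 male lungs alone 2. Over both sexes it was 19, against 40 with DESeq2, 92 and 110 with RUVr, 1 on well-counted genes, 93 without the 3 lungs and 3 to 37 with 1 lung left out. The interaction called 0 genes, 35 without the 3 lungs, and 2101 and 2194 with RUVr. Females against males called 559, against 1004 without a filter, 266 with 10 counts in every library, 1006 and 1040 with RUVr, 976 with the receptor share and 2 on well-counted genes.

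With 3 lungs a group, the 95% interval of a member in females on the first scale was as wide as -1.41 to 0.26 (Sftpc). A p that misses the threshold does not show that the groups are alike. The estimated background was 36.7% for the median tested gene and at most 4.69% among the members.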

Other observations

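On well-counted genes, markers of 2 other cell types in the lists passed the adjusted p over both sexes, where 1.41% of the 2557 well-counted genes were higher at that level, and they are named after their values were seen. Inmt, an amine methyltransferase gene that marks alveolar fibroblasts, had a log2 fold change of 0.40 after hyperoxia (SE 0.08, edgeR adjusted p = 0.0219), and Ear2, a ribonuclease gene of alveolar macrophages, one of 0.42 (SE 0.10, adjusted p = 0.046). For Ear2 the value was 0.76 in females and 0.086 in males, and for Inmt 0.28 and 0.52. On the scale of all genes the pooled values of Inmt and Ear2 were 0.22 and 0.23 (adjusted p = 0.93 and 0.927). Both were under the fold change of 1.5 and were not called. With a replicate block on well-counted genes, 0 of 2557 genes passed an adjusted p under 0.05 over both sexes (smallest edgeR adjusted p = 0.0739). On this scale all 7 fibroblast markers were higher over both sexes (median 0.15, against 0.01 over all well-counted genes), and 2 had an unadjusted p under 0.05, where 10.8% of well-counted genes were higher at that level. On the scale of all genes 3 of the 7 fibroblast markers were higher and 4 lower (median -0.036), and 5 of 10 alveolar macrophage markers were higher and 5 lower.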
